A study of Mus musculus with 2 samples.

Results

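The genes described are Dot1l, Mllt1, Mllt3, Mllt6, Mllt10, Aff1, Aff2, Aff3 and Aff4. They encode a histone methyltransferase, proteins that can join it, and scaffolds of a complex that drives RNA polymerase II through gene bodies. They are 9 of the 32285 genes in the count tables and were taken by name, because the embryos come from a mouse line in which Mllt3 is the targeted gene. All 9 passed the filter on low counts. Their unique molecular identifiers (UMIs, 1 per captured RNA molecule) were summed per embryo and per marker-defined cell class and are given as counts per 1000000 UMIs of that sum (CPM).

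Cerebral cortices of 2 mouse embryos at E16.5 were dissociated with papain, and each suspension gave 1 droplet-based 3'-end library of polyadenylated RNA. The labels name the tissue as brain hemispheres, the genotype as WT and the line as EoMltt3, and the series describes control animals of an Eomes-Cre line, Eomes being active in intermediate progenitors. Whether the embryos carried the Cre allele or a modified Mllt3 allele is not given in the sources used here, and the label does not say whether they shared a litter. The supplement of the study gives C57BL/6J as the source of cortices of this age, whereas the labels name the EoMltt3 line. Both embryos belong to this single group, so no genotypes are compared, and the level of Mllt3 in them is no check of a deletion. Comparisons were therefore made between cell classes of the same embryos, which are called embryo 4 and embryo 5 after their labels.

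DOT1L methylates a lysine in the globular core of histone H3, a mark found along transcribed genes. The proteins encoded by Mllt10 and Mllt6 bind DOT1L, and those encoded by Mllt3 and Mllt1 carry a YEATS domain that reads acylated histone lysines and can join either DOT1L or the super elongation complex. The proteins of the AFF family are the scaffolds on which the super elongation complex assembles with P-TEFb, the kinase that releases paused RNA polymerase II.

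The promoters of the 4 genes that differed most between classes are shown, each as the 300 bases around the first start site listed for the gene in the RefSeq promoter table (GRCm38.p6, the build of the count tables). For Aff1 and Aff3 the gene annotation also begins further upstream than this start. Capitals mark the E-box CANNTG, which reads the same on both strands as a pattern and is the core motif bound by basic helix-loop-helix factors. It occurred in 72.3% of all 32851 promoters of this length. Mllt3 lies at chr4:88033358-88033657 on the minus strand, Aff3 at chr1:38627195-38627494 on the minus strand, Aff2 at chrX:69360081-69360380 on the plus strand and Aff1 at chr5:103753912-103754211 on the plus strand.
Mllt3: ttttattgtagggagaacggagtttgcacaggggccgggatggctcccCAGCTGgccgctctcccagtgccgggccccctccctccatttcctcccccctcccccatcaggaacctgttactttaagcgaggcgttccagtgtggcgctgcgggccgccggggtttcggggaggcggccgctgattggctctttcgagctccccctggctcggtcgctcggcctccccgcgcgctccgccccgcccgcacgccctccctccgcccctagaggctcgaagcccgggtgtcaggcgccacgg
Aff3: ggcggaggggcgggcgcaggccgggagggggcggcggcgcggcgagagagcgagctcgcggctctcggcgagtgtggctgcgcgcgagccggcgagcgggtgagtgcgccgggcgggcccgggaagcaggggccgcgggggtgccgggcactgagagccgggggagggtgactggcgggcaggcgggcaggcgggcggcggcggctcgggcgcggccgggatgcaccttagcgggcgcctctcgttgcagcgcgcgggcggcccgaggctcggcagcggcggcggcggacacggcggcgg
Aff2: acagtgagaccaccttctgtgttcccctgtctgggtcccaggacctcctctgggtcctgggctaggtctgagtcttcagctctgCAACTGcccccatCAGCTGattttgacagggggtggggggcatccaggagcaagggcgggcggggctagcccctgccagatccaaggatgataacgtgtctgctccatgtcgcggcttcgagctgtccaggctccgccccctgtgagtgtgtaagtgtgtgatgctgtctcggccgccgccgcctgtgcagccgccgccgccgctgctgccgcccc
Aff1: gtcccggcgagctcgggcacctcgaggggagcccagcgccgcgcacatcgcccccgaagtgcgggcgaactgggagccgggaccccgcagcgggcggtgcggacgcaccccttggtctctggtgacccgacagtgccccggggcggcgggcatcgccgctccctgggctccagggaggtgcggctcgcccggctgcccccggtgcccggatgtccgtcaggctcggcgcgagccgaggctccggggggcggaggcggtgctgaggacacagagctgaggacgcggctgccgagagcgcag
The windows of Mllt3 and Aff2 held 1 and 2 E-boxes, and those of Aff3 and Aff1 held 0. Aff3 had 54 CpG dinucleotides, Aff1 40, Mllt3 29 and Aff2 16, against a median of 7 over all promoters. Aff2 and Aff3, both higher in excitatory neurons than in RGC-like cells, had the fewest and the most CpG of these 4 windows. A link between CpG and level was not tested. Mllt3 and Aff1 each have a further listed start, not shown, whose windows held 3 and 1 E-boxes and 4 and 22 CpG.

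The libraries held 124318613 UMIs in 12825 barcodes for embryo 4 and 117679925 UMIs in 12289 barcodes for embryo 5. After removal of sparse, mitochondria-rich and doublet-like barcodes 9932 and 10416 cells were kept, with medians of 10079.5 and 8851 UMIs per cell. The libraries shared 46 barcodes, 27 of them among the kept cells. The cells fell into 29 clusters, and 22.9% and 24.4% of cells lay in clusters left without a name. Named classes with at least 20 cells in each embryo were radial glial cell (RGC)-like with 1400 and 1491 cells, intermediate progenitor cell (IPC)-like with 1090 and 1143, immature excitatory neuron-like with 1923 and 1954, upper-layer neuron-like with 721 and 886, deep-layer neuron-like with 1209 and 1256, MGE (medial ganglionic eminence) interneuron-like with 697 and 658, LGE (lateral ganglionic eminence) neuron-like with 384 and 270, and 3 classes with 46 to 110 cells an embryo, Cajal-Retzius neuron-like, pericyte-like and erythroid-like. The erythroid-like cluster also had the neuronal genes Sst, Cck and Npy among its leading genes. Mllt11, a neuronal gene, was higher there (948 and 769 CPM) than in any other class. Values of this cluster are therefore not taken as a measure of background, and where its neuronal RNA came from was not tested. Both embryos had high Xist (857 and 796 CPM) and at most 10 UMIs of each of 4 Y-linked genes, so the X-linked Aff2 is compared within embryos that do not differ in this respect.

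**Figure D1:**
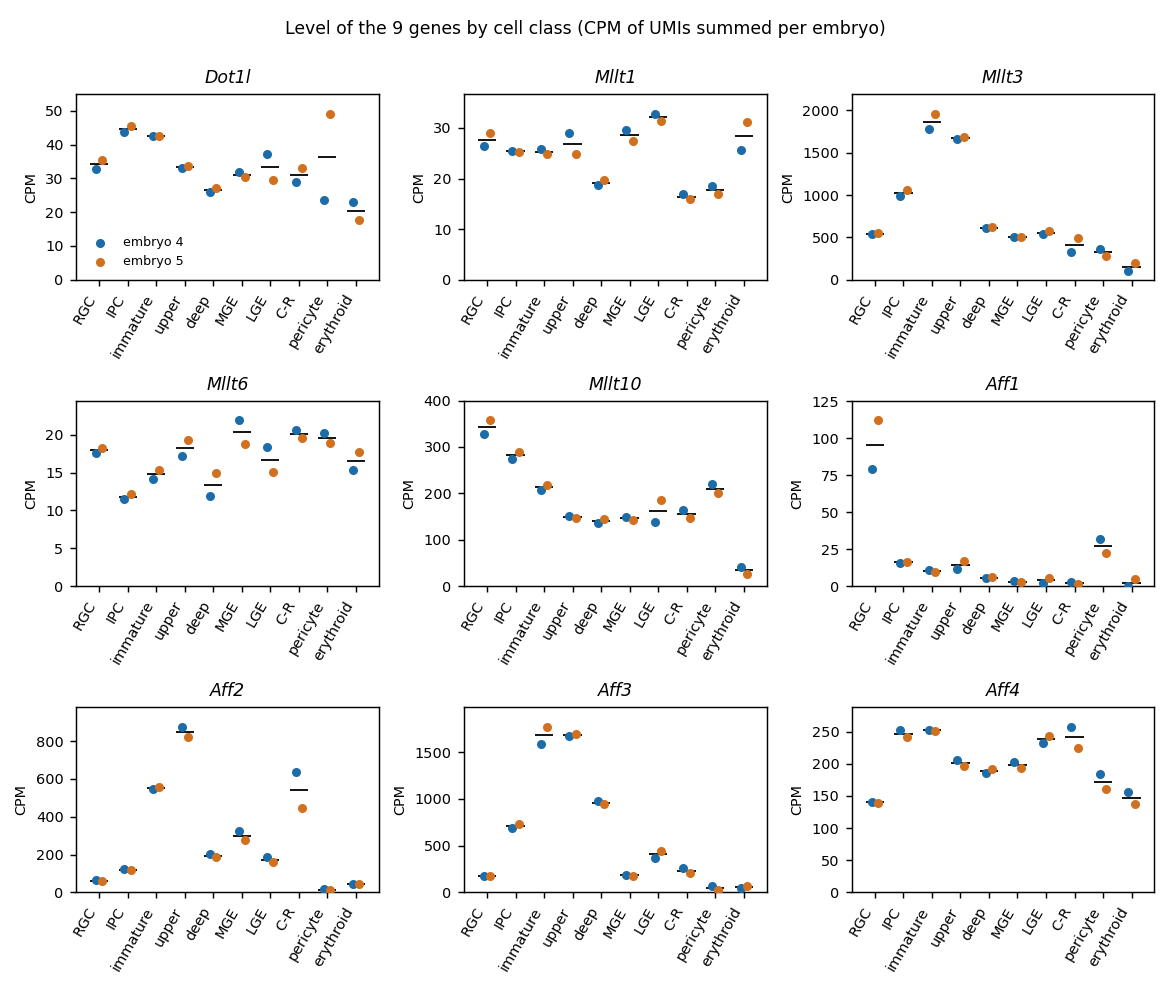
Each panel plots 1 gene, with the 10 cell classes on the x axis and CPM on a linear y axis from 0. Points are the 2 embryos and the black line is their mean (n = 2). Mllt3, Aff2 and Aff3 peak in immature and upper-layer neurons, Mllt10 and Aff1 in RGC, and Dot1l, Mllt1, Mllt6 and Aff4 stay within a narrow range.

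Dot1l, the methyltransferase itself, varied little. Its level was 43.8 and 45.4 CPM in IPC-like cells of embryos 4 and 5, 42.7 and 42.6 CPM in immature neurons, 32.9 and 35.5 CPM in RGC-like cells and 26.1 and 27.1 CPM in deep-layer neurons. The embryos of the IPC-like and immature classes lay above those of every other class with over 200 cells an embryo, whereas RGC-like, upper-layer, LGE and MGE cells overlapped their neighbours in the order. The highest of these 7 class means was 1.68 times the lowest.

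Mllt10 and Mllt6, the DOT1L-binding partners, differed in pattern. Mllt10 had 329 and 357 CPM in RGC-like cells, 274 and 290 CPM in IPC-like cells and 208 and 218 CPM in immature neurons. It was 151 and 146 CPM in upper-layer, 135 and 145 CPM in deep-layer and 150 and 143 CPM in MGE cells. The first 3 classes did not overlap one another, and the range of MGE cells overlapped those of both upper-layer and deep-layer neurons. Mllt6 lay between 11.5 and 21.9 CPM in all 7 larger classes, with IPC-like cells at 11.5 and 12.1 CPM the lowest by mean, and every pair of neighbours in its order overlapped.

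Mllt3 and Mllt1, the paired YEATS readers, also parted. Mllt3 had 540 and 550 CPM in RGC-like cells, 983 and 1056 CPM in IPC-like cells, 1774 and 1954 CPM in immature neurons and 1659 and 1684 CPM in upper-layer neurons. It was lower in deep-layer neurons at 612 and 621 CPM, in LGE cells at 542 and 570 CPM and in MGE cells at 509 and 509 CPM. Along the order of means from immature neurons to MGE cells only LGE and RGC-like cells overlapped. The 3 small classes had 334 and 491 CPM in Cajal-Retzius neurons, 367 and 285 CPM in pericytes and 102 and 196 CPM in erythroid cells, the last from 40 and 44 UMIs. Mllt1 stayed between 18.7 and 32.7 CPM in the 7 larger classes, with deep-layer neurons at 18.7 and 19.6 CPM below all others.

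Aff1, Aff2 and Aff3, scaffolds of the AFF family, showed the widest spans. Aff3 had 176 and 176 CPM in RGC-like cells, 686 and 736 CPM in IPC-like cells, 1590 and 1772 CPM in immature neurons and 1675 and 1694 CPM in upper-layer neurons. Deep-layer neurons had 972 and 948 CPM, LGE cells 372 and 441 CPM and MGE cells 188 and 176 CPM, the last overlapping RGC-like cells. The upper-layer and immature ranges overlapped each other and lay above all other classes. Aff3 was at 43.4 and 66.6 CPM in erythroid cells.

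Aff2 was highest in upper-layer neurons at 877 and 824 CPM, followed by immature neurons at 548 and 556 CPM. Cajal-Retzius neurons had 638 and 447 CPM, a spread that covered the immature neurons. MGE cells had 323 and 275 CPM, deep-layer neurons 202 and 187 CPM, LGE cells 185 and 159 CPM, IPC-like cells 123 and 118 CPM and RGC-like cells 63.9 and 60.8 CPM. No 2 neighbours among these 5 classes overlapped. The erythroid cluster had 43.4 and 44.4 CPM and pericytes had 18.5 and 11.3 CPM. Whether RNA from other cells added to the low values was not tested.

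Aff1 was highest in RGC-like cells. It reached 79.1 and 112 CPM in RGC-like cells, 15.7 and 16.5 CPM in IPC-like cells, 11.2 and 16.7 CPM in upper-layer, 10.6 and 9.45 CPM in immature and 5.29 and 5.92 CPM in deep-layer neurons. Summed as a class, RGC-like cells stood apart from all other classes, in both embryos. In MGE cells Aff1 rested on 16 and 11 UMIs, at 3.33 and 2.49 CPM. The erythroid class gave 0 of 391474 UMIs in embryo 4, which allows up to 7.66 CPM, and 1 UMI in embryo 5. Pericytes were second, with 32.0 and 22.6 CPM from 19 and 12 UMIs.

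Aff4 was lowest in RGC-like cells at 141 and 140 CPM and highest in immature neurons at 253 and 250 CPM and IPC-like cells at 252 and 242 CPM, which overlapped. Upper-layer neurons had 207 and 197 CPM and MGE cells 202 and 193 CPM, again overlapping, and deep-layer neurons had 186 and 191 CPM. The erythroid value of 156 and 138 CPM overlapped the RGC-like one. Across the 7 larger classes the highest mean was 13.6 times the lowest for Aff2, 9.56 times for Aff3, 32.8 times for Aff1 and 3.66 times for Mllt3, against 1.67 to 2.45 times for the other 5 genes.

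Differences between classes were tested with edgeR's quasi-likelihood test on the sums of all 10 classes, with Benjamini-Hochberg adjustment over 16589 genes and a call at an adjusted p under 0.05. A difference is a log2 fold change ± SE, first class minus second, with n = 2 embryos a class. Neighbouring comparisons share classes and are not independent of one another. The shares of all genes called are given with each comparison. In every call of the 9 genes, both embryos taken alone had the direction of the fit. The fit was made from these same 2 embryos, so this agreement is no separate support. The p-values measure the spread between these 2 embryos only.

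From RGC-like to IPC-like cells, the step from apical to Eomes-expressing progenitors, 5 genes were higher and 2 lower, where 21.9% of all genes tested were higher and 24.2% lower. Aff3 rose by 2.08 ± 0.13 (adjusted p = 9.4e-11), Aff2 by 1.02 ± 0.12 (adjusted p = 5.03e-07), Mllt3 by 0.97 ± 0.15 (adjusted p = 1.38e-05), Aff4 by 0.88 ± 0.08 (adjusted p = 9.91e-09) and Dot1l by 0.45 ± 0.10 (adjusted p = 0.00131). Aff1 fell by 2.50 ± 0.18 (adjusted p = 3.67e-10) and Mllt6 fell by 0.53 ± 0.13 (adjusted p = 0.00234). Mllt10 (-0.21 ± 0.10, adjusted p = 0.0920) and Mllt1 (-0.06 ± 0.10, adjusted p = 0.667) were not called. Mllt10 stayed uncalled under 11 of 16 alternative settings and was called lower under the rest, such as library sizes alone (-0.28, adjusted p = 0.0229). The rise of Aff2 was 0.26 (adjusted p = 0.516) with doublet-like barcodes kept and 0.29 (adjusted p = 0.267) with cells of at least 500 genes, where the clusters were drawn anew. The call of Dot1l was lost when scaled by the number of cells (0.18, adjusted p = 0.467) and when cells were thinned to 2000 UMIs (0.37, adjusted p = 0.0836), and that of Mllt6 without cycling clusters (-0.38, adjusted p = 0.0756).

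From IPC-like cells to immature excitatory neurons 4 genes were higher and 2 lower, against 21.5% and 20.9% of all genes. Aff2 rose by 2.33 ± 0.12 (adjusted p = 2.64e-12), Aff3 by 1.38 ± 0.13 (adjusted p = 2.6e-08), Mllt3 by 1.01 ± 0.15 (adjusted p = 9.34e-06) and Mllt6 by 0.45 ± 0.13 (adjusted p = 0.00890). Aff1 fell by 0.54 ± 0.20 (adjusted p = 0.0343) and Mllt10 fell by 0.27 ± 0.10 (adjusted p = 0.0381). The calls of Mllt6, Mllt10 and Aff1 were each lost under 3 to 5 of 16 alternative settings. Dot1l, Mllt1 and Aff4 were not called, with differences of 0.07 ± 0.10, 0.13 ± 0.10 and 0.16 ± 0.08. The result of Aff4 was the same under 10 of 16 alternatives. It was called higher under others, such as cells of at least 500 genes (0.34, adjusted p = 0.00120), and was -0.075 when scaled by the number of cells.

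Upper-layer against immature neurons gave 1 gene higher and 3 lower, against 15% and 14.1% of all genes. Aff2 rose by 0.65 ± 0.11 (adjusted p = 0.000117), a call lost with doublet-like barcodes kept (0.24, adjusted p = 0.594) and with at most 5% mitochondrial UMIs (0.35, adjusted p = 0.109). Mllt10 fell by 0.49 ± 0.10 (adjusted p = 0.00104), Aff4 fell by 0.29 ± 0.08 (adjusted p = 0.00628) and Dot1l fell by 0.33 ± 0.11 (adjusted p = 0.0260). Scaling by the number of cells, which moved the median of all genes by 0.31 here, put Aff4 at 0.023 and Dot1l at -0.014 (adjusted p = 0.966). The call of Dot1l was kept under 11 of 16 alternatives and that of Aff4 under 12, and scaling by cells also ended the call of Mllt10 (-0.17, adjusted p = 0.435). Mllt3 (-0.13 ± 0.14, adjusted p = 0.557) and Aff3 (0.03 ± 0.13, adjusted p = 0.903) were not called here, although with cells of at least 2000 genes they were 0.50 (adjusted p = 0.0109) and 0.64 (adjusted p = 0.000142) higher in upper-layer neurons. With the embryo as a block, Mllt6 (0.33, adjusted p = 0.0379) and Aff1 (0.49, adjusted p = 0.0417) were called as well. Aff1 differed by 0.10 in embryo 4 and 0.85 in embryo 5.

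Deep-layer against upper-layer neurons, the contrast of early-born with late-born projection neurons, gave 0 genes higher and 6 lower, where 13.3% and 11.6% of all genes were called. Aff2 fell by 2.05 ± 0.12 (adjusted p = 3.06e-11), Mllt3 fell by 1.37 ± 0.15 (adjusted p = 4.29e-07), Aff1 fell by 1.25 ± 0.23 (adjusted p = 0.000346) and Aff3 fell by 0.74 ± 0.13 (adjusted p = 0.000174). Mllt1 fell by 0.41 ± 0.10 (adjusted p = 0.00426) and Mllt6 fell by 0.37 ± 0.13 (adjusted p = 0.0414). The calls of Mllt1 and Mllt6 were lost under 3 and 11 of 16 alternatives, and that of Aff3 with doublet-like barcodes kept (-0.70, adjusted p = 0.0734), while Dot1l (-0.26 ± 0.11, adjusted p = 0.104) was called with the embryo as a block (adjusted p = 0.0332). Mllt10 (-0.01 ± 0.10) and Aff4 (-0.03 ± 0.08) were not called.

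**Figure D2:**
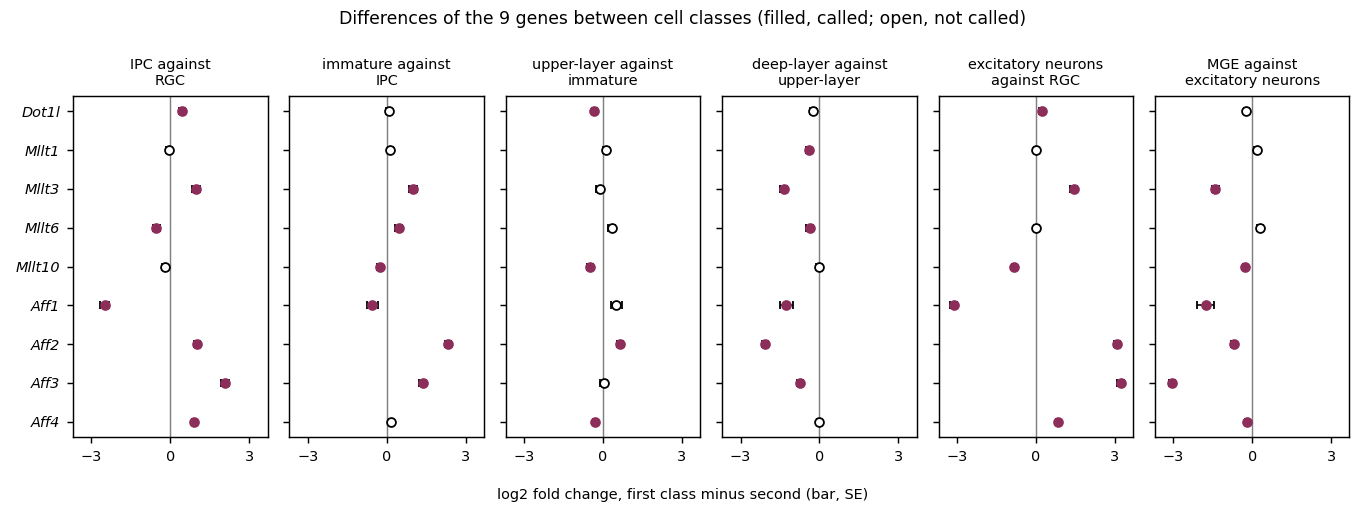
Each panel plots 1 of the 6 comparisons, with the 9 genes as rows and the log2 fold change on the x axis. Bars are SE from edgeR, filled points were called and open points were not. Aff2, Aff3 and Mllt3 lie to the right and Aff1 to the left in excitatory neurons against RGC, and all called points lie to the left in deep-layer and in MGE cells.

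For excitatory neurons, taken as the mean of the immature, upper-layer and deep-layer classes, 5 genes were higher and 2 lower than in RGC-like cells. Of all genes 35.4% were higher and 35.7% lower. Clusters left without a name were not part of this comparison. Aff3 was 9.40-fold (3.23 ± 0.13, adjusted p = 5.95e-15) and Aff2 8.57-fold higher (3.10 ± 0.11, adjusted p = 1.3e-15). Mllt3 was 2.71-fold (1.44 ± 0.13, adjusted p = 3.33e-09) and Aff4 1.79-fold higher (0.84 ± 0.07, adjusted p = 3.67e-10). Aff1 was 8.70-fold lower (-3.12 ± 0.13, adjusted p = 9.52e-15) and Mllt10 1.76-fold lower (-0.82 ± 0.08, adjusted p = 1.22e-08). These 6 calls held under all 16 alternatives. The alternative without a naming margin gave the same clusters and names as the main setting, so it could not change a call. Dot1l was also called (0.22 ± 0.09, adjusted p = 0.0277), although its mean CPM was 34.2 in both. Scaling by library size alone moved the median of all genes by -0.25 in this comparison and Dot1l to -0.027 (adjusted p = 0.792). Mllt1 (0.01 ± 0.08) and Mllt6 (0.02 ± 0.10) were not called but turned to -0.24 (adjusted p = 0.0101) and -0.23 (adjusted p = 0.0466) under that scaling.

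MGE interneurons against excitatory neurons gave 0 genes higher and 6 lower, against 18.5% and 19.4% of all genes. Of the inhibitory cells only the MGE class was tested. Aff3 was 8.28-fold lower (-3.05 ± 0.13, adjusted p = 8.35e-14), Aff1 3.40-fold lower (-1.76 ± 0.33, adjusted p = 0.000211), Mllt3 2.64-fold lower (-1.40 ± 0.13, adjusted p = 2.24e-08) and Aff2 1.63-fold lower (-0.70 ± 0.10, adjusted p = 6.13e-06). Mllt10 fell by 0.28 ± 0.09 (adjusted p = 0.0208) and Aff4 fell by 0.21 ± 0.07 (adjusted p = 0.0145). The last 2 calls were lost with library sizes alone, which moved the median of all genes by 0.11 here, and with DESeq2's size factors, and that of Aff2 with doublet-like barcodes kept (-0.48, adjusted p = 0.107). Not called were Dot1l (-0.22 ± 0.11), Mllt1 (0.17 ± 0.09) and Mllt6 (0.30 ± 0.12). With library sizes alone Mllt1 (0.28, adjusted p = 0.0249) and Mllt6 (0.41, adjusted p = 0.0107) were called higher. Both were also called higher with DESeq2's size factors, so that none of the genes is higher depends on the scaling. Scaled by the number of cells, both were negative and not called, and Dot1l was called lower (-0.74, adjusted p = 0.000463). Median UMIs per cell were 6516 and 6392.5 in MGE cells and 7918.5 to 12863 in the excitatory classes. The MGE value of Aff1 rested on 16 and 11 UMIs. LGE cells were not part of this comparison, nor was the unnamed cluster 13, led by Adarb2 with Gad1 among its leading genes. LGE cells had more Aff4 (233 and 244 CPM) and Aff3 (372 and 441 CPM) than MGE cells, and less Aff2 (185 and 159 CPM). Cluster 13 had 264 and 237 CPM of Aff4, 296 and 390 CPM of Aff3 and 92.4 and 55.4 CPM of Aff2.

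Single clusters showed where within a class the levels changed. Among IPC-like cells, cluster 15, led by Neurog2 and Gadd45g, had 27.1 and 40.7 CPM of Aff2, under every RGC-like cluster, whereas cluster 5, led by Kif26b and Eomes, had 153 and 156 CPM. Aff3 in the same clusters was 316 and 327 CPM and 824 and 923 CPM, and Mllt3 was 737 and 750 CPM and 1028 and 1126 CPM. The cycling IPC-like cluster 17, led by Pclaf and Rrm2, had 1129 and 1217 CPM of Mllt3, above the RGC-like clusters, which lay between 239 and 633 CPM.

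Within immature neurons, cluster 1, with Neurod1 and Unc5d among its leading genes, had 382 and 404 CPM of Aff2, and cluster 0, led by Nrp1, had 691 and 679 CPM. The order of Mllt3 between these clusters was the opposite, with 1828 and 2035 CPM in cluster 1 and 1728 and 1889 CPM in cluster 0, ranges that overlapped. Upper-layer neurons split for Mllt3 and Aff3 but not for Aff2. Cluster 11 had 1998 and 2124 CPM of Mllt3 and 2067 and 2149 CPM of Aff3, cluster 10 had 1333 and 1379 CPM and 1297 and 1380 CPM, and Aff2 lay between 821 and 931 CPM in both.

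Deep-layer neurons split for Aff2. Cluster 2, led by Hs3st4 with Tle4, a marker of corticothalamic neurons, had 104 and 95.0 CPM, and cluster 6, with Ldb2 among its leading genes, had 339 and 292 CPM. Mllt3 differed less, at 553 and 534 CPM against 694 and 720 CPM, and Aff3 at 1002 and 976 CPM against 931 and 916 CPM. Among RGC-like cells Aff1 was 110 and 159 CPM in cluster 9, led by Adamts19 with Wwtr1, and 56.8 and 71.8 CPM in cluster 8, led by Tnc. It was 74.3 and 127 CPM in cluster 7, led by Prc1, and 71.1 and 23.6 CPM in cluster 21, led by Ano1, where the embryos lay far apart. The highest Aff2 of any cluster was 1162 and 1227 CPM in an unnamed one led by Luzp2 and Tac2, with Lhx9 and Neurod1 also among its leading genes. These clusters were drawn from the same cells, so their values are a description without a test.

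**Figure D3:**
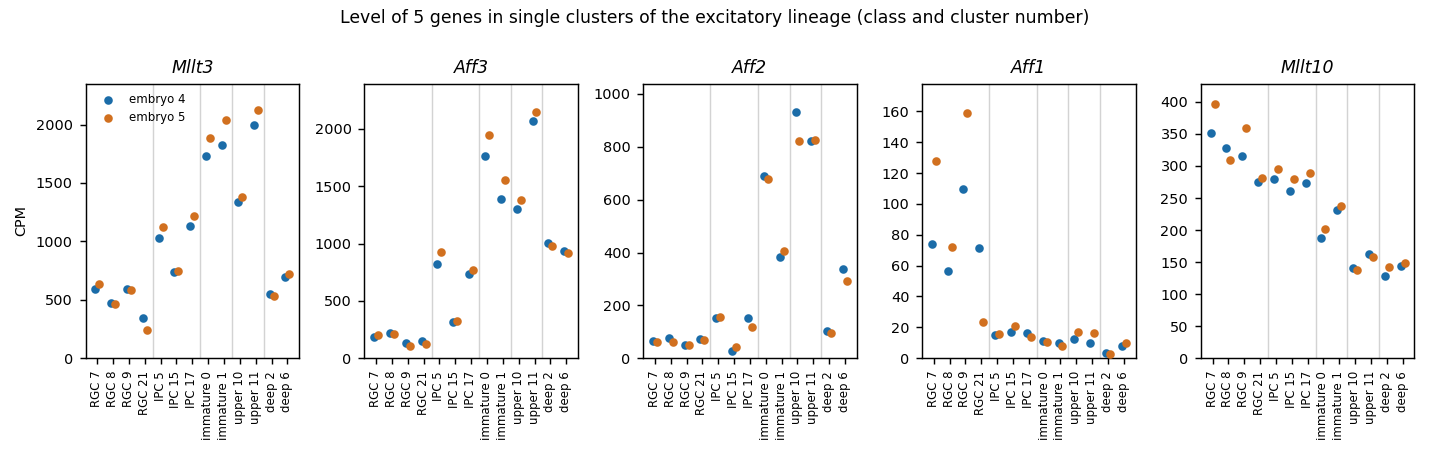
Each panel plots 1 gene over the 13 clusters of the RGC-like, IPC-like, immature, upper-layer and deep-layer classes, in number order within a class, with CPM on a linear y axis from 0 and 1 point per embryo. Aff2 is low in IPC cluster 15 and higher in cluster 5, and differs between deep-layer clusters 2 and 6.

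The genes differ in length, and the longest genes as a group moved with the neurons. RefSeq lengths (GRCm38.p6) were 512 kb for Aff2 (chrX:69360190-69872054), 455 kb for Aff3 (chr1:38175393-38630178), 263 kb for Mllt3 (chr4:87769925-88033407), 163 kb for Aff1 (chr5:103692362-103855322) and 157 kb for Mllt10 (chr2:18055160-18212390), and 22.3 to 71.2 kb for the other 4. The 353 tested genes over 400 kb had a median difference of 0.90 in excitatory neurons against RGC-like cells, 58.1% being called higher and 32.0% lower, beside 3.10 for Aff2 and 3.23 for Aff3. Genes of 200 to 400 kb had a median of 0.04, beside 1.44 for Mllt3, and genes of 100 to 200 kb one of -0.08, beside -3.12 for Aff1 and -0.82 for Mllt10. In MGE against excitatory cells the medians of the 2 longest bins were 0.22 and 0.15, while Mllt3, Aff2 and Aff3 were lower. Whether intronic reads were counted is not given in the sources used here, and the part of length in these results was not tested. Mllt10 overlaps Dnajc1 and the long non-coding RNA gene Gm39761 on the opposite strand, Aff3 overlaps Gm16150 in the same way and Mllt3 holds the long non-coding RNA gene Gm34232, whose strand was not analysed here, and the strand setting of the counting is not stated, so reads in the shared stretches cannot be told apart.

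**Figure D4:**
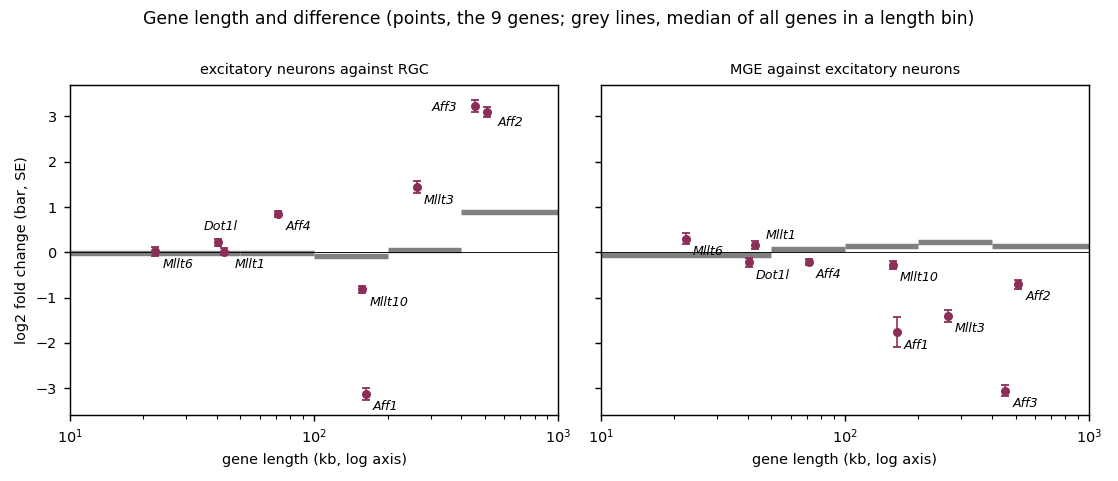
Points are the 9 genes, with gene length in kb on a log x axis and the log2 fold change (bar, SE) on the y axis, for excitatory neurons against RGC and MGE against excitatory neurons. Grey lines are the median over all tested genes of a length bin; Aff2 and Aff3 lie above the 0.90 of the longest bin on the left and below its 0.15 on the right.

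The other genes of the elongation machinery were counted from a list of 44, which held partners of the super elongation complex, control of P-TEFb, the PAF1 complex, pausing and elongation factors, H2B ubiquitination, the KMT2A complex, Polycomb partners of the YEATS readers and other YEATS proteins. Of these 43 were tested, all but Ell3. In excitatory neurons against RGC-like cells 16 were higher and 15 lower, or 37.2% and 34.9%, near the shares of all genes, with a median of 0.02. Of the lists within it, the 10 pausing and elongation factors had the lowest median, -0.60 against 0.00 over all genes. Among them 3 were higher and 7 lower, or 30% and 70%, against 35.4% and 35.7% of all genes. The medians of the other lists ran from -0.20 for the PAF1 complex to 0.63 for the 2 Polycomb partners. The lists were not tested as sets. Larp7, part of the 7SK complex that holds P-TEFb inactive, fell by 1.76 ± 0.08 (adjusted p = 1.05e-13), from 89.7 and 92.7 CPM in RGC-like cells to 16.1 and 15.2 CPM in deep-layer neurons. Ssrp1, a subunit of the histone chaperone FACT, fell by 0.98 ± 0.07 (adjusted p = 4.18e-11). Cbx8, a Polycomb protein bound by the YEATS readers, rose by 0.92 ± 0.14 (adjusted p = 5.06e-06), and Hexim2, an inhibitor of P-TEFb, rose by 0.75 ± 0.19 (adjusted p = 0.00172) at levels of 2.59 to 5.49 CPM.

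From RGC-like to IPC-like cells 12 of 43 were higher and 6 lower (27.9% and 14%, against 21.9% and 24.2% of all genes), and from IPC-like cells to immature neurons 6 and 6 (14% each, against 21.5% and 20.9%). In upper-layer against immature neurons they were 1 and 8 (2.33% and 18.6%, against 15% and 14.1%), and in deep-layer against upper-layer neurons 2 and 4 (4.65% and 9.30%, against 13.3% and 11.6%). At the first step Ube2b, which ubiquitinates H2B with RNF20, rose by 0.74 ± 0.08 (adjusted p = 2.4e-07) and Ctr9 of the PAF1 complex rose by 0.56 ± 0.09 (adjusted p = 3.93e-05; 0.28 when scaled by the number of cells, adjusted p = 0.172), and Larp7 and Ssrp1 fell by 0.83 ± 0.11 and 0.49 ± 0.09. At the second Cbx8 rose by 1.14 ± 0.17 (adjusted p = 1.43e-05) and Yeats4 by 0.35 ± 0.07 (adjusted p = 0.000613; 0.11 when scaled by the number of cells, adjusted p = 0.65), while Cdc73 of the PAF1 complex fell by 0.68 ± 0.08 (adjusted p = 4.71e-07) and Larp7 fell by 0.60 ± 0.11. Without the cycling clusters Larp7 was at -0.20 (adjusted p = 0.189). Cdc73 also fell by 0.65 ± 0.08 in upper-layer neurons (adjusted p = 4.34e-06), where Eaf1 and Wdr61 fell by 0.54 ± 0.20 and 0.28 ± 0.09 (Wdr61 was at 0.032 when scaled by the number of cells) and the only gene called higher was Hexim2 (0.79 ± 0.24, adjusted p = 0.0173). Of these calls that of Eaf1 was kept under 6 of 16 alternatives, that of Hexim2 under 10, that of Wdr61 under 11 and that of Cdc73 under 15.

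In deep-layer against upper-layer neurons Cdc73 rose by 0.44 ± 0.09 (adjusted p = 0.000518) and Supt4a by 0.26 ± 0.09 (adjusted p = 0.0313), and Nelfb, a subunit of the pausing factor NELF, and Larp7 fell by 0.70 ± 0.13 and 0.61 ± 0.13. The call of Supt4a was kept under 6 of 16 alternatives. In MGE against excitatory neurons 5 of 43 were higher and 7 lower (11.6% and 16.3%, against 18.5% and 19.4% of all genes). Bcor, a Polycomb partner of the YEATS readers, rose by 0.92 ± 0.10 (adjusted p = 1.6e-07), from 34.8 to 68.8 CPM in excitatory classes to 97.7 and 106 CPM in MGE cells, which did not overlap. Ell2 rose by 1.36 ± 0.41 (adjusted p = 0.0126), but at 7.29 CPM in embryo 4 and 2.27 CPM in embryo 5, the latter within the excitatory range, and embryo 5 taken alone gave -0.094 against 2.55 in embryo 4. Larp7 fell by 0.54 ± 0.14 and Ube2a fell by 0.36 ± 0.13, the latter a call kept under 8 of 16 alternatives. Mllt11 and Afdn, which share only the naming as fusion partners of KMT2A, rose by 3.97 ± 0.13 and 0.42 ± 0.06 in excitatory neurons against RGC-like cells.

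Likeness of pattern was measured as Pearson's r of log2(CPM + 10) over the 20 sums of class and embryo, among 7267 genes with a mean of at least 20 CPM. These points share 2 libraries and differ in depth, so r is a description. The most similar genes were Ptpn4 (0.97), Fmnl2 (0.94) and Gramd1b (0.92) for Mllt3, Sort1 (0.97), Tenm4 (0.96) and Fmnl2 (0.94) for Aff3 and Cnst (0.93), Tnrc6c (0.92) and Gpm6a (0.92) for Aff2. For Mllt10 they were Lnpep, Srek1 and Numb (each 0.97), for Aff1 Dcp2 (0.93), Dkc1 (0.92) and Paics (0.91), for Aff4 Riok3 (0.91), Jkamp (0.90) and 9630028H03Rik (0.90), and for Dot1l Mosmo (0.89), Mphosph9 (0.86) and Anapc10 (0.86). Mllt1 and Mllt6 had no gene over 0.84 and 0.79, led by Hp1bp3, Pcdh10 and Pcdh17 and by Fjx1, Lpcat1 and Ccdc6. Among the 9 genes over 10 class means, Mllt3 and Aff3 were most alike (0.90), then Dot1l and Mllt10 (0.84) and Aff2 and Aff3 (0.77). The 20 sums and the 10 means include the erythroid-like cluster, which had both haemoglobin and neuronal genes among its leading genes. It had the lowest mean of Dot1l (20.4 CPM), Mllt10 (33.8 CPM) and Mllt3 (149 CPM). How far it shaped these r was not tested.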

How the data were processed

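Per the labels and the file headers, the authors aligned droplet-based 3'-end libraries of 2 cortices to mm10 (GRCm38) with Cell Ranger (version 7.0.0 in the submitters' processing notes, 7.1.0 in the matrix headers) and deposited filtered matrices of raw UMI counts per gene and barcode, with no cell annotation. Whether introns and strand were used in counting is not given in the sources used here. All deposited columns were mapped to a sample.

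Cells needed at least 1000 genes and at most 10% mitochondrial UMIs. The barcodes with the highest scores against simulated doublets were removed, at 0.8% per 1000 cells. Clusters came from 2000 variable genes, without the 9 genes and the elongation lists, 30 components and 20 neighbours by the Leiden algorithm at resolution 1 (scanpy 1.11.5, leidenalg 0.10.2, Python 3.11.15). A cluster was named from fixed markers where their mean log2 ratio to the other clusters, with 10 CPM added, was at least 0.5, at least 3 markers were detected, and no other class's markers prevailed among its 10 leading genes. Chosen after the clusters were seen were a margin of 0.25 to the next class, no postmitotic name for a cycling cluster and a leading haemoglobin gene for the erythroid name.

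Counts were summed per embryo and class, with at least 20 cells in each, and the 20 sums of 10 classes were fitted with edgeR 4.0.16 (TMM, filterByExpr, quasi-likelihood test, R 4.3.3), which was also tested on simulated data. DESeq2 1.42.0 and the other settings are given in the closing section. The labels do not say whether the embryos are litter mates, and p-values measure only the spread between these 2 embryos. Sums with the same number come from the same embryo and so pair the classes. The correlation of their deviations between classes was -0.007 to 0.204 over 45 pairs (median 0.0644). Intervals and floors cover counting error only; the floor is 3 counts.

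Named were all 9 genes, per comparison the 2 called genes of the other elongation list with the highest and the 2 with the lowest difference, for each of the 9 genes the 3 most similar genes outside the lists, and marker genes. The genes, lists and tests were chosen with earlier results of these data known. Cluster-leading genes, Mllt11 and Afdn are given as background.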

Additional observations from a re-analysis of the deposited data

How the results depend on the processing

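Among the differences of the 9 genes, 730 kept their direction and side of the threshold over the alternatives that gave a test, 59 lost the call, 34 gained it and 41 changed sign. For the named other elongation genes the numbers were 335, 48 lost and 1 with a changed sign. The alternative without a naming margin left clusters and names as they were, and its results count among those kept. With the embryo as a block, the calls added among the 9 genes were Mllt6 and Aff1 in upper-layer and Dot1l in deep-layer neurons. The block changed no other call of the 9 genes. How many calls it added over all genes is not given here. Leaving out an embryo gives values without a test. Thinning every cell to 2000 UMIs called 4859 genes in IPC-like against RGC-like cells, 4483 in immature neurons against IPC-like cells, 2650 in upper-layer against immature, 2139 in deep-layer against upper-layer and 3809 in MGE against excitatory neurons, against 7649, 7029, 4838, 4135 and 6292, and 2541 were called in deep-layer neurons with scaling by cells. Called genes among the 9 were 2 in upper-layer against immature neurons with doublets kept and when thinned, and 3 in deep-layer neurons with doublets kept. The matching numbers over all genes are given for thinning only, so the counts with doublets kept are not read as particular to the 9 genes. The cause was not tested; thinning itself removes counts.

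Signs changed as follows, all from differences not called except where given in the report. From RGC-like to IPC-like cells Mllt1 was 0.10 when thinned. In immature neurons against IPC-like cells Dot1l was -0.066 with library sizes alone, -0.16 by cells and -0.10 with at least 2000 genes, Mllt1 -0.0056 and -0.10 under the first 2 of these, and Aff4 -0.075 by cells. In upper-layer against immature neurons Mllt3 was 0.19 by cells, 0.14 at resolution 2, 0.50 with at least 2000 genes and 0.0044 with at most 5% mitochondrial UMIs, Aff4 0.023 and Wdr61 0.032 by cells, and Aff3 -0.024 with doublets kept. In deep-layer against upper-layer neurons Mllt10 was 0.015 with DESeq2's size factors and with DESeq2 and 0.0064 by cells, and Aff4 0.0025 and 0.0022 with those tools, 0.00013 with at least 500 genes, 0.040 with doublets kept and 0.047 when thinned.

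In excitatory neurons against RGC-like cells Mllt1 was -0.095 with DESeq2's size factors and with DESeq2, -0.24 with library sizes alone, -0.28 by cells, -0.033 at resolution 2, -0.042 with doublets kept, -0.063 with at least 2000 genes, -0.045 with at most 5% mitochondrial UMIs and -0.072 without cycling clusters. Mllt6 was -0.086 with both of these tools, -0.23 with library sizes alone, -0.28 by cells, -0.012 with doublets kept, -0.053 with at most 5% mitochondrial UMIs and -0.15 when thinned, and Dot1l -0.027 and -0.074 with library sizes alone and by cells. In MGE cells Mllt1 was -0.35 and Mllt6 -0.21 by cells, and Ell2 was -0.094 without embryo 4 and 2.55 without embryo 5.

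Scaling by cells moved the median of all genes by -0.28, -0.23, 0.31, -0.29 and -0.52 in all comparisons but deep-layer against upper-layer, library sizes alone by -0.13, -0.25 and 0.11 in immature, excitatory and MGE cells, and DESeq2's size factors by -0.11 in excitatory neurons. Higher genes made up 47.6%, 50.7%, 51.6%, 49.8% and 48.8% of calls in those 5 comparisons, and 23.8%, 29.4%, 81.7%, 34.2% and 15.0% when scaled by cells. With library sizes alone they were 37.0% in immature, 37.2% in excitatory, 62.1% in MGE and 42.8% in deep-layer neurons, the last against 53.4%. Depth limited Aff1, with at most 16 UMIs an embryo in MGE and LGE cells, and the 3 smallest classes.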
